A study of Danio rerio with 2 samples.

Results

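DEAD and DEAH box RNA helicases are the genes whose symbols begin with ddx or dhx, and their expression was compared between zebrafish larvae homozygous for the lri35 mutation and wild-type larvae of the same clutches. Members were taken by symbol, in upper or lower case, when the mean of both libraries reached 1 FPKM (a level in sequenced fragments scaled to gene length and to library size). The symbol matched 49 of the 33733 rows of the table, and 47 reached the mean. The mutant group was 1 library of whole larvae homozygous for the allele, which the sample labels spell lir35, and the wild-type group was 1 library of their siblings. Both were made from total RNA of 20 pooled larvae of the AB/TL background at 5 days post fertilization (dpf). The labels do not say which gene the allele affects, so no targeted gene could be used to check them. With 1 library per genotype there is no replicate spread and no test across samples, every difference below is between these 2 libraries, and pool, library and genotype cannot be told apart.

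RNA helicases of this family use ATP to unwind short RNA duplexes or to strip proteins from RNA, and they are named after the residues of a conserved ATP-binding motif. DEAD box (ddx) proteins mostly open short duplexes locally, while DEAH box (dhx) proteins translocate along a strand. Some DEAH box proteins are activated by partners with a G-patch domain. They act at each step of the life of an RNA: transcription, splicing, ribosome assembly, nuclear export, translation, decay and the sensing of viral RNA. Roles given below are mostly known from yeast and human cells.

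Over all rows FPKM came to 874244 in the mutant library and 875340 in the wild-type library, and rows with a value above 0 numbered 22504 and 22106. All 23 markers of muscle, nervous system, eye, liver, pancreas, blood, skin and other tissues chosen to check the whole-body label reached a mean of 1 FPKM. Their summed level was 28238 FPKM in the mutant library and 32307 FPKM in the wild-type library. In the mutant library 19 markers were lower and 4 higher. With 1 FPKM added, 7 were lower by 1.5-fold or more, as were 1813 of all 19327 rows that reached that mean. On that scale 2 markers were 2-fold lower or more, against 3.22% of all such rows. These were the pancreatic genes try (trypsin) and ctrb1 (chymotrypsinogen). The others of the 7 included, as plain ratios, the liver gene fabp10a (1.83-fold lower) and the red blood cell genes hbae3 (1.92-fold) and hbbe1.1 (1.55-fold). Also among them were the endothelial gene fli1a (1.75-fold lower) and the neutrophil gene mpx (2.76-fold lower, at 0.630 and 1.74 FPKM in mutant and wild type). The other listed markers of liver, endothelium and neutrophils differed little, at 1.17-fold lower for tfa, 1.02-fold lower for kdrl and 1.12-fold lower for lyz. In whole larvae, fewer cells of a type and less RNA per cell cannot be told apart, and the part of tissue makeup in the helicase levels was not tested.

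The family as a whole was at a like level in both libraries, and 1 member, dhx57, stood far apart. Summed over the 47 members, FPKM was 1262 in the mutant library and 1141 in the wild-type library, a ratio of 1.11, which was 0.144% and 0.130% of all FPKM. The net excess in the mutant library was 121 FPKM, and the higher levels of ddx5 and dhx57 there equalled 65.0% and 24.5% of it. Differences were taken as log2((mutant FPKM + 1)/(wild-type FPKM + 1)), a scale that shrinks the differences of low genes. On this scale 1 member was higher by 2-fold or more in the mutant library, against 2.95% of all 19327 rows that reached a mean of 1 FPKM. No member was lower by 2-fold or more, against 3.22% of all such rows. These shares do not set the family apart from other rows.

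The median log2 difference was 0.05 over the 47 members, or -0.01 when a mean of 5 FPKM was required, and it was -0.01 over all 19327 rows. The interquartile range of the members was -0.17 to 0.26, and that of all rows -0.26 to 0.23. Members above 0 numbered 25 and members below 0 numbered 22, where 49.1% of all rows lay above 0. Rescaling to the total without the 50 most abundant rows turned the sign of 3 members near 0, which were ddx49, ddx39b and ddx20. Of the members, 4 were past 1.5-fold on this log2 scale in either direction (8.51%), where 17.4% of all rows were. Members with a mean of 1 to 5 FPKM gave 3 of these 4, out of 16, and 27.1% of all rows at that level were past 1.5-fold. None of the 10 members at 5 to 10 FPKM was past 1.5-fold, where 15.9% of rows at that level were. Among the 21 members at 10 FPKM or more dhx57 was the one past 1.5-fold, where 8.02% of rows were. At 2.59 FPKM in the wild-type library, dhx57 reached that level through the mutant library, so a difference was built into its place there.

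**Figure D1:**
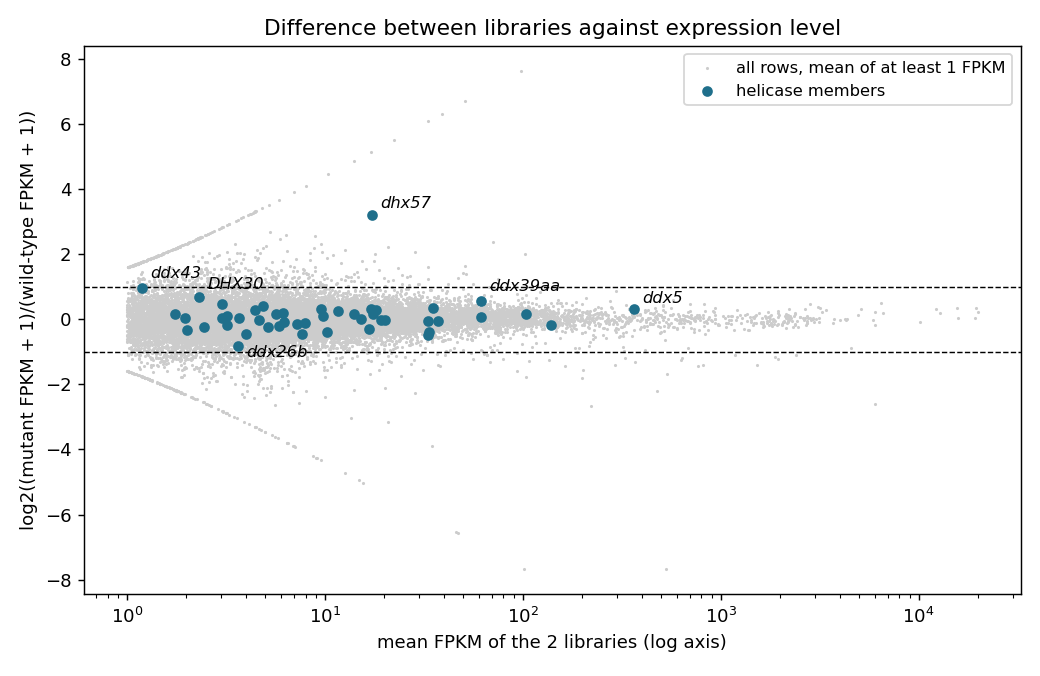
Each point is 1 row of the table, with the mean FPKM of the 2 libraries on a log axis and the log2 difference, mutant over wild type, on the vertical axis. Grey points are all 19327 rows that reached a mean of 1 FPKM, blue points are the 47 helicase members, and dashed lines mark 2-fold. All members but dhx57 lie between the dashed lines, and dhx57 lies at 3.20.

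The gene dhx57 encodes a putative DEAH box helicase whose cellular role is little studied. Its level was 32.1 FPKM in the mutant library, against 2.59 FPKM in the wild-type library, a 12.4-fold higher level and a log2 difference of 3.20. Its difference was number 21 from the top among all 19327 rows. Among the 11576 rows at a mean of 5 FPKM or more and a value above 0 in both libraries, 2 rows had a ratio as high, dhx57 included. Its wild-type level alone is below 5 FPKM, so it is among these rows through the mutant library, and its place there is a description only. In the mutant library dhx57 was the second most abundant DEAH box member after dhx15, while in the wild-type library it stood in the lower range of the family.

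In the authors' deposited table dhx57 had a p of 0.0622 and a q of 0.994, so the row was not called there. The row spans 13:7683912-7716915 in the Zv9 build and shares its region with no other row. Its nearest rows that reached a mean of 1 FPKM were galm at 12.7 FPKM in the mutant library and 9.44 FPKM in the wild-type library, atl2 at 14.4 and 15.8 FPKM, and epas1b at 9.93 and 10.9 FPKM, in the same order of libraries. These neighbours lay within 1.5-fold, so the large difference on this stretch of chromosome 13 was at dhx57 alone among them. The neighbours were taken as the 3 closest rows on each side, and the others were at 0 in both libraries or below 1 FPKM.

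The other DEAH box genes of little-studied function, and ddx59, showed small differences that all pointed the same way. The paralogues dhx32b and dhx32a stood at 5.68 and 1.91 FPKM in the mutant library, against 4.06 and 1.59 FPKM in the wild-type library. The gene ddx59, mutated in a human syndrome of face, mouth and digit defects, was at 3.07 FPKM in the mutant library and 2.96 FPKM in the wild-type library. The level of dhx40 was 2.01 FPKM in the mutant library and 1.91 FPKM in the wild-type library. Without dhx57, the 4 genes had a median log2 difference of 0.11, against -0.01 over all rows. All 4 lay above 0, where 49.1% of all rows did. The region of dhx32a holds 3 other rows, and of the 4 genes the authors' deposited table tested dhx32b alone. The shared sign of so few genes was not tested.

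**Figure D2:**
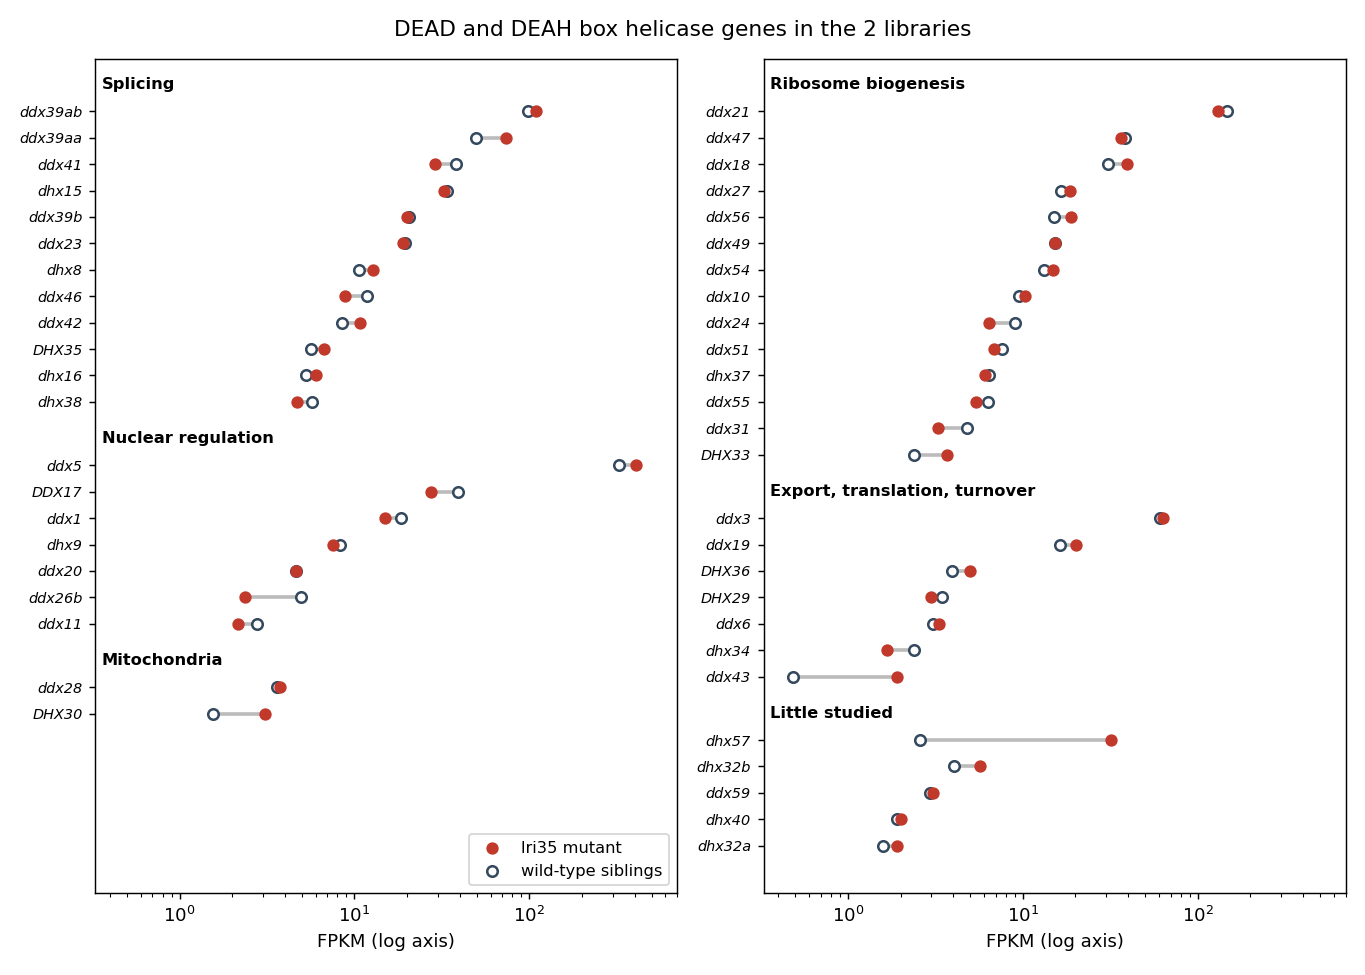
The level of each of the 47 helicase members is shown in FPKM on a log axis, grouped by role and ordered by mean level within each role. Filled red points are the lri35 mutant library and open points the wild-type siblings, with 1 library each and so no error bars. The widest gaps are those of dhx57, ddx43, ddx26b and DHX30.

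Splicing was represented by 12 members, none of which reached 1.5-fold. Their median log2 difference was 0.06, with 6 above 0 and 6 below (ddx39b turned with rescaling), and their summed level was 332 FPKM in the mutant library and 307 FPKM in the wild-type library. The most abundant were ddx39ab and ddx39aa, which with ddx39b are export and splicing helicases of the UAP56 type that load onto nascent mRNA. The level of ddx39ab was 109 FPKM in the mutant library and 97.7 FPKM in the wild-type library. Its paralogue ddx39aa stood at 73.4 FPKM in the mutant library and 49.5 FPKM in the wild-type library (1.48-fold higher), and ddx39b at 20.0 and 20.4 FPKM. In the authors' deposited table ddx39aa had a p of 0.0514, the lowest of the splicing members, and a q of 0.994.

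The DEAH box motors that drive the spliceosome through its cycle lay close to equality. The gene dhx16, whose product starts the first catalytic step, was at 6.06 FPKM in the mutant library and 5.30 FPKM in the wild-type library. The gene dhx38, of the remodelling before the next step, was at 4.68 and 5.71 FPKM in mutant and wild type. The gene dhx8, of mRNA release, was at 12.8 FPKM in the mutant library and 10.6 FPKM in the wild-type library. The gene dhx15, whose product takes the spent spliceosome apart, was at 32.7 FPKM in the mutant library and 33.9 FPKM in the wild-type library. These motors thus lay both above and below wild type, with no shared direction. DHX35, found in human spliceosomes, was at 6.67 FPKM in the mutant library and 5.65 FPKM in the wild-type library.

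The other DEAD box members of the splicing class included its lower ones. The gene ddx46, needed for U2 snRNP binding at the branch point and for digestive organ development in zebrafish, was at 8.78 FPKM in the mutant library and 11.8 FPKM in the wild-type library (1.35-fold lower). Its region holds 5 other rows, so its level is uncertain. The level of ddx41, a human leukaemia predisposition gene, was 28.8 FPKM in the mutant library and 38.3 FPKM in the wild-type library, and another row of the same symbol on chromosome 9 was listed at 0 in both. The level of ddx42, a partner of the U2 snRNP, was 10.7 FPKM in the mutant library and 8.48 FPKM in the wild-type library, and ddx23, which releases the U1 snRNP, stood at 18.9 and 19.4 FPKM.

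Ribosome biogenesis was the largest class, with 14 members, and none of them reached 1.5-fold with 1 FPKM added. Their median log2 difference was -0.03, with 6 above 0 and 8 below (ddx49 turned with rescaling), and their sums were 316 FPKM in the mutant library and 322 FPKM in the wild-type library. The nucleolar helicase gene ddx21 dominated, at 130 FPKM in the mutant library and 146 FPKM in the wild-type library. The level of ddx18, of ribosomal subunit assembly and needed for blood formation in zebrafish, was 39.4 FPKM in the mutant library and 30.9 FPKM in the wild-type library (1.27-fold higher). The level of ddx47, of small subunit processing, was 36.6 FPKM in the mutant library and 38.2 FPKM in the wild-type library, over a region of only 662 bases.

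Helicases of large subunit assembly went both ways. Higher in the mutant library were ddx27 (18.6 FPKM, against 16.6 FPKM in wild type), ddx56 (18.9 against 15.1 FPKM) and ddx54 (15.0 against 13.2 FPKM). Lower in the mutant library were ddx24 (6.40 FPKM, against 9.03 FPKM in wild type), ddx31 (3.26 against 4.77 FPKM), ddx51 (6.86 against 7.61 FPKM) and ddx55 (5.37 against 6.32 FPKM). The lowest differences of the class, both -0.44, were those of ddx24 and ddx31. Of the small subunit members, ddx49 was at 15.3 and 15.4 FPKM in mutant and wild type, and ddx10 at 10.2 and 9.46 FPKM. The gene dhx37, whose product releases the U3 snoRNA, was at 6.06 FPKM in the mutant library and 6.44 FPKM in the wild-type library, in a region with 6 other rows. DHX33, linked to ribosomal RNA transcription in human cells, was at 3.70 FPKM in the mutant library and 2.37 FPKM in the wild-type library. Its plain ratio was 1.56-fold, and its log2 difference of 0.48 was the highest of the class.

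The class of nuclear regulation, mostly of transcription and RNA processing but also holding the DNA helicase ddx11, had all members but 1 below wild type. Of 7 members, 6 lay below 0 and ddx5 above it (ddx20 turned with rescaling), where 49.1% of all rows lay above 0. The median log2 difference of the class was -0.24. Its summed level went the other way through ddx5, at 464 FPKM in the mutant library and 405 FPKM in the wild-type library. Without ddx5 the sums were 59.2 and 78.2 FPKM in mutant and wild type. That direction was fixed by leaving out the sole member above 0, so these sums are a description only. The class is small, and its balance of signs was not tested. The coactivator gene ddx5, also a partner of the microRNA-processing enzyme Drosha, was the most abundant helicase in both libraries. Its level was 405 FPKM in the mutant library and 326 FPKM in the wild-type library, which was 1.24-fold higher. Its paralogue DDX17 was at 27.5 FPKM in the mutant library and 39.1 FPKM in the wild-type library (1.42-fold lower), in a region with 2 other rows, of which gga1 was above 0. The log2 differences of ddx5 and DDX17 thus lay 0.80 apart, with opposite signs.

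Lowest of the whole family was ddx26b, at 2.38 FPKM in the mutant library and 4.93 FPKM in the wild-type library. The plain ratio was 2.07-fold lower, and the log2 difference with the added 1 FPKM was -0.81, short of 2-fold, though 2-fold was passed with a pseudocount of 0.1 FPKM. Despite its symbol, ddx26b belongs with INTS6, a subunit of the Integrator complex that cleaves nascent RNA. In the authors' deposited table its p was 0.0265 and its q 0.994, and it was the one member of 38 tested with p under 0.05 (2.63%), where 2.94% of all 14574 tested rows had such a p. The authors' deposited table tested 38 of the 47 members and gave every tested member the same q of 0.994, while 0.124% of all tested rows had a q under 0.05 there. The other 9 members were not tested there, and none of them had a mean above 3.21 FPKM.

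The other nuclear members were lower by smaller amounts. The level of ddx1, a part of the tRNA ligase complex, was 15.0 FPKM in the mutant library and 18.4 FPKM in the wild-type library. The gene dhx9, RNA helicase A, was at 7.58 FPKM in the mutant library and 8.29 FPKM in the wild-type library. The gene ddx20, of the SMN complex that assembles snRNPs, was at 4.61 and 4.65 FPKM in mutant and wild type. The gene ddx11, a DNA helicase of sister chromatid cohesion, was at 2.17 FPKM in the mutant library and 2.76 FPKM in the wild-type library, and ddx26b was the sole member of this class past 1.5-fold.

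**Figure D3:**
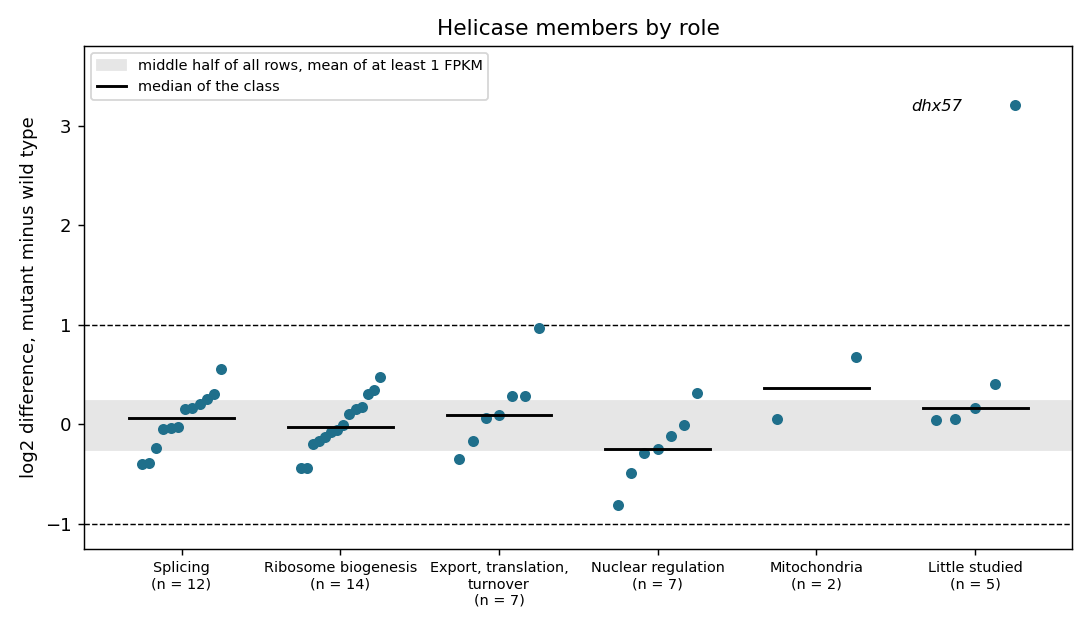
Log2 differences, mutant minus wild type, are shown for the 47 members by role, 1 point per gene, with a black line at the median of each class and dashed lines at 2-fold. The grey band is the interquartile range of all 19327 rows that reached a mean of 1 FPKM, from -0.26 to 0.23. The class medians run from -0.24 in nuclear regulation to 0.37 in mitochondria, which holds 2 genes.

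Helicases of export, translation and mRNA turnover numbered 7, with 5 above 0 and a median log2 difference of 0.09. Over all rows, 49.1% lay above 0. The class counts ddx43, which reached the minimum through the mutant library, so its place above 0 was built in. The translation helicase gene ddx3 was at 63.0 FPKM in the mutant library and 60.5 FPKM in the wild-type library. The level of ddx19, whose product strips export factors from mRNA at the nuclear pore, was 20.0 FPKM in the mutant library and 16.3 FPKM in the wild-type library. The gene ddx6, of translational repression and decapping in P-bodies, was at 3.33 FPKM in the mutant library and 3.07 FPKM in the wild-type library. None of these 3 differences reached 1.5-fold. DHX36, which unwinds G-quadruplexes, was at 4.98 FPKM in the mutant library and 3.91 FPKM in the wild-type library, in a region with 4 other rows. DHX29, of ribosome scanning, was at 2.97 and 3.45 FPKM in mutant and wild type, and dhx34, of nonsense-mediated decay, at 1.67 and 2.39 FPKM.

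The germline-associated helicase gene ddx43 was the least abundant member, at 1.91 FPKM in the mutant library and 0.484 FPKM in the wild-type library. Its plain ratio was 3.95-fold higher and its log2 difference 0.97, just short of 2-fold, which it passed with a pseudocount of 0.1 FPKM. Its mean of 1.20 FPKM was the nearest above the minimum, and it reached it through the mutant library, so a difference was built into its passing. The next member above it, dhx32a, had a mean of 1.75 FPKM. Germ cell genes went both ways. Of 10 listed germ cell genes 8 were found, their summed level was 6.94 FPKM in the mutant library and 10.3 FPKM in the wild-type library, and 2 of the 8 reached a mean of 1 FPKM. This sum leaves out the germ cell gene vasa (ddx4), at 3.23 FPKM in the mutant library and 2.41 FPKM in the wild-type library. The Piwi gene piwil1 was at 2.09 FPKM in the mutant library and 5.98 FPKM in the wild-type library, nanos3 at 0.394 FPKM in the mutant library and listed at 0 in wild type, and ca15b was listed at 0 in both. The 2 that reached the mean, piwil1 and gra, were both lower in the mutant library, with gra at 0.987 against 1.73 FPKM in wild type. Also lower were tdrd1 (0.680 against 0.913 FPKM) and tdrd6 (0.349 against 0.508 FPKM). Higher in the mutant library were dazl (1.26 against 0.667 FPKM) and piwil2 (1.17 against 0.459 FPKM). Without piwil1 the summed level of the other 7 was 4.84 FPKM in the mutant library and 4.27 FPKM in the wild-type library. Leaving out piwil1 removes the largest fall of the list, so that sum is a description only.

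Both mitochondrial members were higher in the mutant library, by unequal amounts. DHX30, of mitochondrial ribosome assembly, was at 3.08 FPKM in the mutant library and 1.55 FPKM in the wild-type library. Its plain ratio was 1.99-fold and its log2 difference 0.68, and the authors' deposited table did not test it. The level of ddx28, of the same process, was 3.76 FPKM in the mutant library and 3.59 FPKM in the wild-type library. By the roles assigned here, the class of viral RNA sensors held dhx58 alone. This gene fell below the minimum, at 0.492 FPKM in the mutant library and listed at 0 in wild type. It was the closest row below the minimum, with a mean of 0.246 FPKM.

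DEAD box genes, taken here by the symbol ddx, were more abundant than DEAH box genes, taken by dhx. The ddx group thus counts ddx26b, of the INTS6 type, and the DNA helicase ddx11. The 31 DEAD box members had a median level of 15.0 FPKM in the mutant library and 15.1 FPKM in the wild-type library, and the 16 DEAH box members of 5.33 FPKM in the mutant library and 3.98 FPKM in the wild-type library. Of the 21 members at a mean of 10 FPKM or more, 18 were DEAD box genes. The summed level of the DEAH box genes was 135 FPKM in the mutant library and 99.7 FPKM in the wild-type library, a ratio of 1.35, and without dhx57 it was 103 and 97.1 FPKM, a ratio of 1.06. The median log2 difference was 0.17 for the DEAH box genes and -0.01 for the DEAD box genes, and without dhx57 that of the DEAH box genes was 0.16. No test of the difference between the subfamilies was available.

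The family lies near the middle of the expressed genes in level. The median of the mean levels was 7.94 FPKM for members and 6.71 FPKM for all rows that reached a mean of 1 FPKM, and 26 of 47 members lay at or above that median of all rows. In the whole table ddx5 ranked at place 311 by mean level and ddx21 at 631, and 3 members were among the 1000 most abundant rows. The 5 most abundant members, ddx5, ddx21, ddx39ab, ddx3 and ddx39aa, held 781 of the 1262 FPKM of the family in the mutant library and 680 of 1141 in the wild-type library. All 5 lay within 1.5-fold, so the bulk of helicase RNA was at like levels in both libraries.

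Members were spread over 21 chromosomes of Zv9, with at most 4 on one. Chromosome 13 carried ddx21, dhx57 and ddx43, far apart from each other, and of these dhx57 and ddx43 were higher in the mutant library while ddx21 was slightly lower. On chromosome 7 beyond 69 Mb lay dhx15, dhx38 and DHX36, with log2 differences of -0.05, -0.24 and 0.28, and all within 1.5-fold. The regions of 33 members hold no other row, and the 14 that share a region with another row had log2 differences between -0.49 and 0.48. The 4 members past 1.5-fold on the log2 scale with 1 FPKM added were all among the 33 that stand alone. Over all rows 17.4% were past 1.5-fold, and with so few such members the split is a description only.

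A further 4 genes of the family stand in the table under other symbols and were found by gene ID after the values were seen. The vasa gene, the germ cell helicase ddx4, was at 3.23 FPKM in the mutant library and 2.41 FPKM in the wild-type library. The gene pl10, now ddx3xb, was at 124 FPKM in the mutant library and 111 FPKM in the wild-type library. The row si:ch211-175g6.7, now ddx61, was at 50.5 FPKM in the mutant library and 45.0 FPKM in the wild-type library. The row zgc:193690, now ddx19a, was at 2.07 FPKM in the mutant library and 3.17 FPKM in the wild-type library. None of these 4 reached 1.5-fold on the log2 scale with 1 FPKM added.

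Close relatives can trade reads, so they were also read as sums. For ddx39aa with ddx39ab, the sum was 182 FPKM in the mutant library and 147 FPKM in the wild-type library, a ratio of 1.24, and ddx39aa made up 40.2% of it in the mutant library and 33.6% in the wild-type library. For ddx3 with pl10 the sum was 187 FPKM in the mutant library and 172 FPKM in the wild-type library, and for ddx6 with si:ch211-175g6.7 it was 53.8 and 48.0 FPKM. For ddx19 with zgc:193690 the sum was 22.1 FPKM in the mutant library and 19.5 FPKM in the wild-type library, and for dhx32a with dhx32b 7.60 and 5.65 FPKM. Each of these sums was higher in the mutant library by less than 1.5-fold. The sources used here do not say how reads shared between copies were counted.

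**Figure D4:**
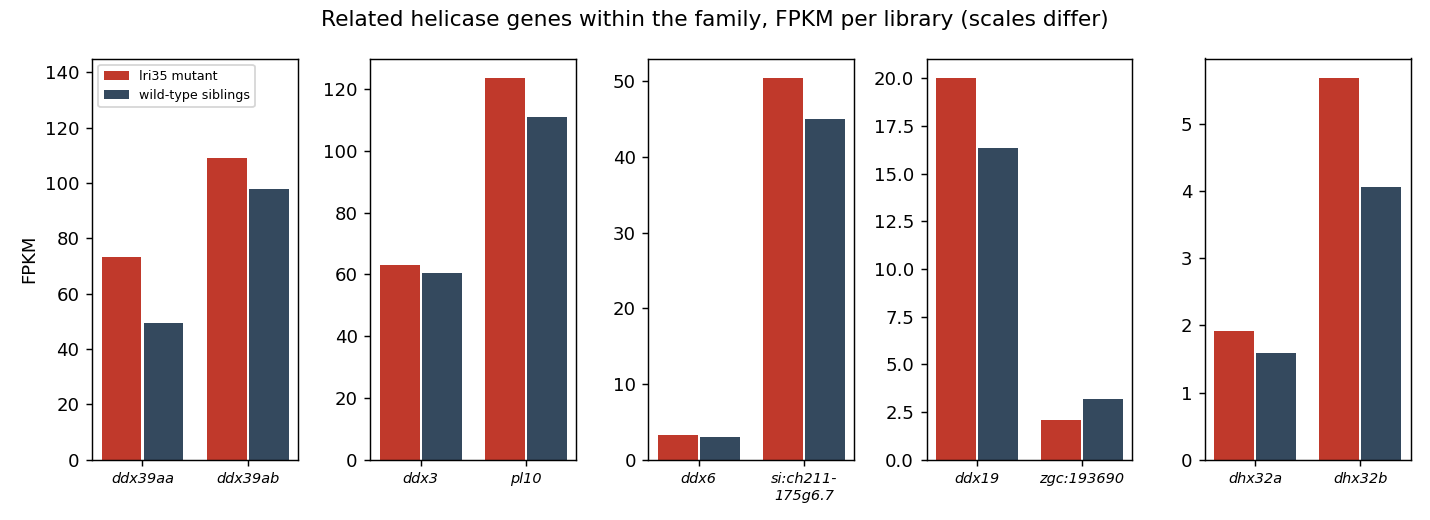
FPKM is shown on linear axes from 0 for 5 sets of related helicase genes, with the lri35 mutant library in red and the wild-type siblings in dark blue, and with 1 library each. Scales differ between panels. In ddx39aa with ddx39ab, and in ddx3 with pl10, both genes are slightly higher in the mutant library, and ddx19 is higher while zgc:193690 is lower.

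Genes that work with these helicases also lay mostly within 1.5-fold, as did 82.6% of all rows that reached a mean of 1 FPKM. RNA helicases with other names include the translation factors eIF4A and the decay factor upf1. Of those listed, 18 genes reached a mean of 1 FPKM, with a median log2 difference of -0.05. None was past 1.5-fold with 1 FPKM added, though the plain ratio of ighmbp2 was 1.68-fold higher (4.58 against 2.72 FPKM in wild type). The most abundant were eif4a1b, at 312 FPKM in the mutant library and 324 FPKM in the wild-type library, and eif4a1a, at 270 FPKM in the mutant library and 208 FPKM in the wild-type library. Of 19 G-patch partners, 1 was higher by 2-fold or more, 0 were lower by as much, and the median was 0.02. Over all rows 2.95% were higher and 3.22% lower by 2-fold or more, so these counts do not set the list apart. The higher one was cmtr1, a cap methyltransferase gene whose product binds dhx15, at 12.7 FPKM in the mutant library and 5.31 FPKM in the wild-type library (2.40-fold higher). Its p in the authors' deposited table was 0.00625, and it was not called there.

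The spliceosome list, which holds none of the members but includes the helicase gene snrnp200, had a median log2 difference of 0.14 over 43 rows, of which 33 lay above 0, where 49.1% of all rows did. None was past 2-fold, where 2.95% of all rows were higher and 3.22% lower by as much. The core Sm protein gene snrpe was at 131 FPKM in the mutant library and 78.0 FPKM in the wild-type library (1.68-fold higher), and snrpa, of the U1 snRNP, was at 66.8 and 43.4 FPKM in mutant and wild type. The splicing helicases, with 6 of 12 above 0, did not share this balance of signs, and the difference between the lists was not tested. Medians were -0.02 over 18 mRNA export genes and 0.09 over 31 rows of mRNA turnover genes, none past 2-fold with 1 FPKM added. The export factor gene thoc6 was at 12.4 FPKM in the mutant library and 5.69 FPKM in the wild-type library, which is 2.17-fold higher as a plain ratio and just short of 2-fold with 1 FPKM added. The decapping enzyme gene dcp2 was at 10.1 and 5.53 FPKM in mutant and wild type. Another row of the same symbol was at 0.649 and 0.780 FPKM, below the minimum mean.

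Of 28 antiviral sensing genes found, 15 reached a mean of 1 FPKM, with a median log2 difference of 0.04. Of the 15, 1 was past 2-fold, where 2.95% of all rows were higher and 3.22% lower by as much. The one past 2-fold was isg15, a ubiquitin-like gene induced by interferon, at 2.69 FPKM in the mutant library and listed at 0 in wild type. It reached the mean through the mutant library, so a difference was built into its passing. Below the mean were genes that were higher in wild type, such as stat1b at 0.232 FPKM in the mutant library and 1.22 FPKM in the wild-type library, and tlr3 at 0.141 and 0.856 FPKM. The interferon gene ifnphi1 was listed at 0 in the mutant library and at 0.769 FPKM in the wild-type library. The RIG-I-like receptor gene ifih1 was at 0.260 FPKM in the mutant library and 0.106 FPKM in the wild-type library, and the adaptor gene mavs was at 7.48 and 5.59 FPKM. The sensor genes dhx58 and ifih1 thus lay close to the bottom of the measured range in both libraries.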

How the data were processed

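Per the labels' protocols, total RNA of 1 pool of 20 whole larvae per genotype was column-purified and sequenced from Illumina libraries. Bowtie, CASAVA and the Zv9 build are named in the submitters' processing notes. The sources used here do not give the quantifier, the annotation or any poly(A) selection. The authors deposited 1 table with a value per gene and library, read here as FPKM from its Cuffdiff-like layout, since no label states the unit. The p-values and q-values are the authors', copied from the deposited table. They compare the 2 libraries.

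Absolute depth is unknown, so no counting interval can be given. In 350 low rows mutant over wild-type FPKM had its mode at 0.801, and 40.9% of these rows lay within 0.1 of it in log2. If such rows hold like counts, that is about 1.25 times more fragments in the mutant library, which could not be checked. This relation was not corrected for, as FPKM is already scaled.

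Members were rows whose symbol begins with ddx or dhx and a digit, with a mean of at least 1 FPKM. Any member could be named. Other genes came from 8 written lists (other RNA helicases, G-patch partners, spliceosome, mRNA export, mRNA turnover, antiviral sensing, germ cells and whole-larva markers) or were neighbours or relatives of members. Members and lists were chosen with earlier results of these data known. Differences used a pseudocount of 1 FPKM and a 2-fold rule, with 1.5-fold as a second description, and plain folds are ratios of deposited values. Of the 49 matched IDs, 42 were in a current gene name table. The 2-fold rule was also run on simulated shifts. Their recovery follows from how they were built, so this checks the code alone and not the error of a single library. Pseudocount, filter, scaling, row handling and region overlap were varied. Python 3.11.15, pandas 2.3.3 and NumPy 2.4.6 were used.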

Additional observations from a re-analysis of the deposited data

How the results depend on the processing

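The call of dhx57 held under 8 other settings of pseudocount, filter, scaling and row handling and with 4 family genes matched by ID added. Of these settings, only the pseudocounts and the rescalings could change its log2 difference. It ran from 2.29 with a pseudocount of 5 FPKM to 3.58 with 0.1 FPKM. The other settings left it at 3.20 by construction and are no check on it. For the mean of at least 5 FPKM, dhx57 also passed through the mutant library alone. With a pseudocount of 0.1 FPKM, 2 members were at least 2-fold higher (dhx57 and ddx43) and 1 was at least 2-fold lower (ddx26b). Leaving out dhx57, a choice made after the data were seen, left 0 higher. The median of the members ranged from -0.01, with a mean of at least 5 FPKM required, to 0.07, rescaled to the total without the 50 most abundant rows, so its sign is not settled. That rescaling turned the sign of 3 members near 0, ddx49, ddx39b and ddx20, and left 44 of 47 as they were. Rescaling moved the median of all rows by at most 0.03. No paired analysis was possible because each genotype has 1 library, and for the same reason no replicate could be left out. Depth limits the members under 5 FPKM most, and how far could not be computed without counts.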
